A study of Mus musculus with 108 samples.

Results

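Single cells of 2 mouse germline stem cell lines, GSC1 and GSC2, were compared gene by gene. The cells were chosen by the line named in their titles: 29 of 30 GSC1 cells, leaving out 1 that stood apart, and all 24 GSC2 cells, 53 cells in all. The series also holds 30 cells of GSCLC1 and 24 of GSCLC4, lines of germline stem cell-like cells grown from pluripotent cells, which serve here only as a scale. For GSCLC4 the labels give a temperature and a time of culture that they do not give for the other lines. Germline stem cells are cultured spermatogonial stem cells. Both GSC lines had the strain background 129/SvJcl x C57BL/6 and carried the AcrAct_EGFP reporter. They were grown in StemPro-34 medium with GDNF, bFGF, LIF, EGF and fetal bovine serum. GSC2 came from its own set of testes of postnatal day 7, whereas the labels used here do not give the age of the testes behind GSC1. The serial numbers in the titles divide the GSC1 cells into a run from 65 to 80 (run 1, 13 cells) and a run from 129 to 150 (run 2, 16 cells). Those of the GSC2 cells lie between 21 and 62. The sources used here do not say what a serial run stands for.

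In the testis a small pool of undifferentiated spermatogonia renews itself and feeds sperm production. Sertoli cells supply GDNF, which acts through the receptor pair GFRA1 and RET and keeps these cells undifferentiated, with transcription factors such as ETV5 and FOXO1 downstream. When retinoic acid drives differentiation the cells take up KIT and STRA8. The comparison asks in which genes a pair of testis-derived lines grown in the same medium differed.

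Each side is 1 line, so every difference is a difference between these lines, with no replicate and no test. Cells of a line are not replicates of it, and their spread is given only as a description. Expression was read from the 3′ ends of polyadenylated RNA (SC3-seq) and is given as RPM, read counts scaled to an equal total of gene reads in every cell. A line difference is log2(mean RPM over GSC1 cells + 1) minus log2(mean RPM over GSC2 cells + 1), so a positive value means higher in GSC1, and differences of low genes are understated. The 10115 genes whose line means averaged at least 5 RPM are described. A gene is called 2-fold different when its line difference is at least 1 in size and each GSC1 run alone differs from the GSC2 mean by at least that much in the same direction. Both runs are set against the same GSC2 cells, so they are not independent comparisons.

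The estimated depth was 2.02 to 6.04 M reads per cell (median 3.72) in GSC1 and 2.42 to 5.85 M (median 4.3) in GSC2. A GSC1 cell had a median of 8811 detected genes and a GSC2 cell 9182. Spike-in RNA stood at a median of 42079 RPM in GSC1 and 33144 RPM in GSC2, with overlapping ranges of 21633 to 60759 and 12610 to 56396. No 2 cells of the series had a correlation above 0.661, so none was a copy of another. All 53 cells carried germ cell RNA: Dazl and Ddx4, RNA-binding and helicase genes of the germline, reached 5 RPM in every cell of both lines. The Sertoli gene Amh, the Leydig genes Cyp11a1 and Cyp17a1, the macrophage gene Csf1r and the spermatid genes Prm1, Prm2 and Acrv1 were at 0 in both lines. Other markers of these cells were not: the Sertoli genes Sox9 and Wt1 averaged 5.03 and 4.07 RPM in GSC1 and 0.936 and 0.55 RPM in GSC2. The Leydig gene Star averaged 6.71 RPM in GSC1 and 1.56 RPM in GSC2, the leukocyte gene Ptprc 3.78 RPM and 0.0105 RPM, and the spermatid gene Tnp1 0 and 3.05 RPM. Each of these reached 5 RPM in at most 10.3% of the cells of a line. The 15 listed Sertoli markers summed to a median of 163.3 RPM per cell in GSC1 (20.4 to 459.8) and 150.1 RPM in GSC2 (5.41 to 408.5). In line means most of this was Ctsl, at 127.5 of 188.7 RPM in GSC1 and 152.3 of 175.9 RPM in GSC2. The part of all these markers in the line differences was not tested. The 17 listed fibroblast and feeder markers summed to a median of 902 RPM per cell in GSC1 (252 to 6009) and 644 RPM in GSC2 (222 to 1999). The largest means were those of Lgals1, Vim, S100a6 and Fn1, the first at 540.3 RPM in GSC1 and 341.4 RPM in GSC2. Collagen genes were lower, with Col1a1 at 23.2 RPM in GSC1 and 12.5 RPM in GSC2, and Col3a1 at 0.0456 RPM and 0. Lum was at 0 in both lines. The highest fibroblast and feeder sums were in run 2, where 2 cells reached 3488 and 6009 RPM. The highest sum in run 1 was 1395 RPM.

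By this definition 600 genes, 5.93% of those described, differed 2-fold between the lines: 267 genes (2.64%) were higher in GSC1 and 333 genes (3.29%) were lower. Without the condition on the runs 1291 genes (12.8%) passed, 638 of them higher (6.31%) and 653 lower (6.46%). When cells were rescaled to their spike-ins in place of their reads, 1.55% of genes were called higher and 7.62% lower, and the median of all differences was -0.38 in place of -0.03. The direction of a small difference therefore depends on the scale, and directions below are for equal numbers of gene reads. With every cell thinned to 2023796 reads, the depth of the shallowest cell, 270 genes were higher and 334 lower.

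More genes differed 2-fold between the runs of GSC1 than between either run and GSC2. Run 1 differed 2-fold from run 2 in 2303 of 10071 genes (22.9%). Against GSC2, run 1 alone differed in 1923 of 10055 genes (19.1%) and run 2 alone in 1868 of 10158 genes (18.4%). These counts rest on 13 against 16, 13 against 24 and 16 against 24 cells. Means over fewer cells are noisier, so the 3 counts are not on an equal footing, and the part of cell number in them was not tested. Across genes, the means of run 1 and run 2 correlated with a Pearson r of 0.859, those of run 1 and GSC2 with 0.883, those of run 2 and GSC2 with 0.886, and those of the whole lines with 0.918. For scale, GSC1 differed 2-fold from GSCLC1 in 14.7% of genes and from GSCLC4 in 17.6%, and GSC2 from the same lines in 14.7% and 16.4%. These pairs of lines share cells, so their values are given only side by side.

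Most 2-fold differences were in weakly expressed genes. At an average of 5 to 20 RPM, 28.2% of 3260 genes differed 2-fold in the line means and 13.8% also in both runs, while 44.7% differed between the runs. At 20 to 50 RPM these shares were 11.2%, 4.85% and 22.7% of 2700 genes, and at 50 to 100 RPM 3.21%, 0.947% and 8.89% of 1901 genes. At each level below 500 RPM the share was larger between the runs than between either run and GSC2, whose mean rests on more cells: at 5 to 20 RPM run 1 differed from GSC2 in 39% of genes and run 2 in 37.3%. From 500 RPM none of 256 genes differed 2-fold in any of these comparisons. Of the genes called higher in GSC1, 200 of 267 averaged under 20 RPM, as did 250 of the 333 called lower. From 100 RPM on, Sfrp2 was the only gene called. The highest cell of the higher line held a median of 25.8% of that line's signal over the genes called higher in GSC1, and 28.5% over those called lower, so that many of these means rest on few cells.

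**Figure D1:**
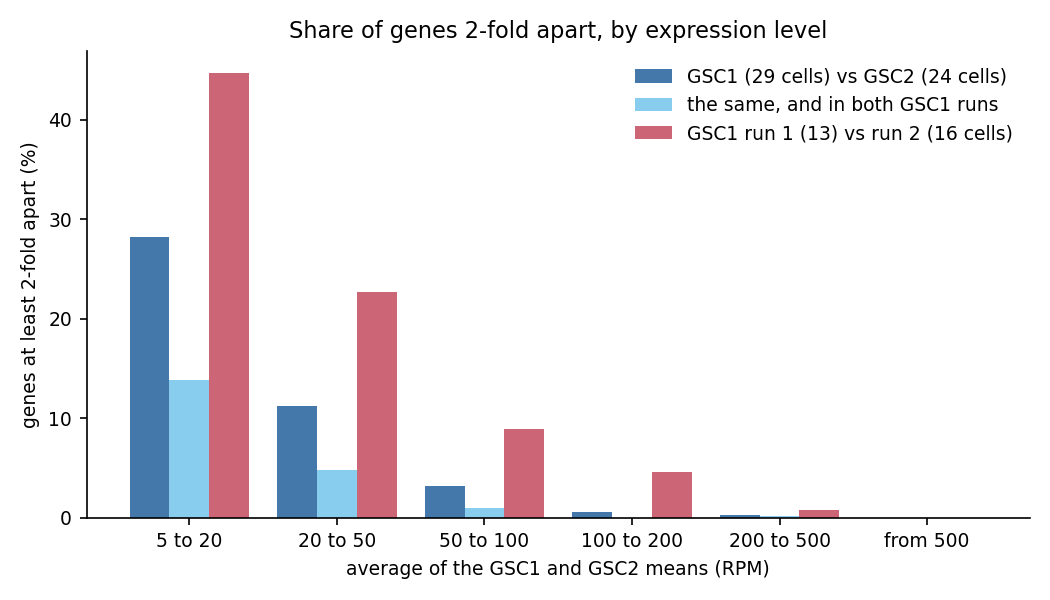
Share of genes at least 2-fold apart (vertical axis, percent) by average expression (horizontal axis, RPM), for GSC1 against GSC2, for the same with the difference present in both GSC1 runs, and for run 1 against run 2 of GSC1. The bars shrink with expression, from 28.2%, 13.8% and 44.7% at 5 to 20 RPM to 0 from 500 RPM, and the bar for the runs is the tallest of its group at every level below that.

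**Figure D2:**
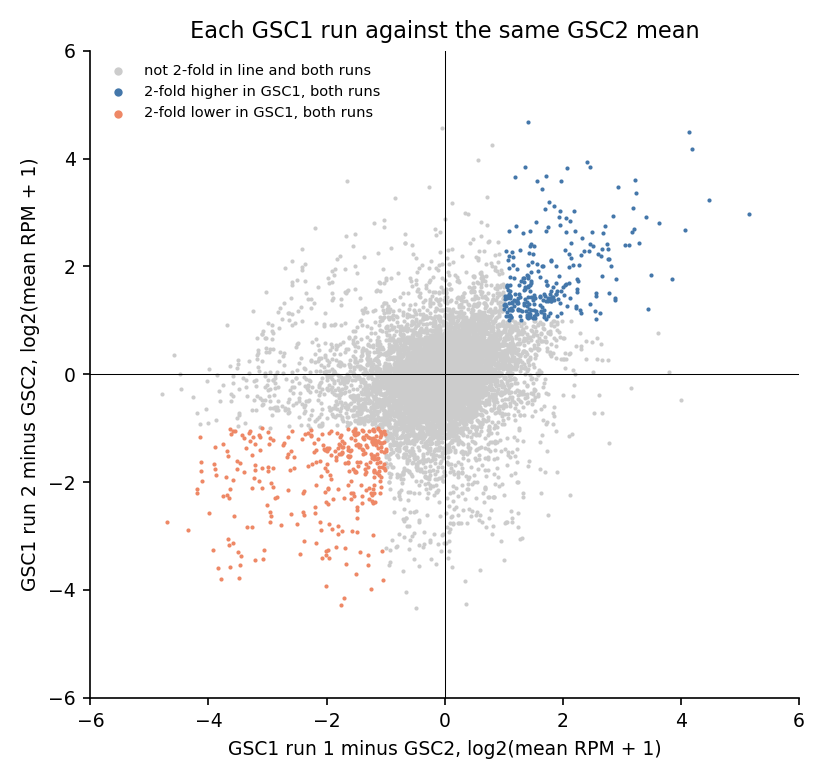
Difference of GSC1 run 1 from GSC2 (horizontal axis) and of GSC1 run 2 from GSC2 (vertical axis), both in log2(mean RPM + 1), with each of the 10115 described genes as a point. Blue points are the 267 genes called higher in GSC1 and orange points the 333 called lower; grey points along the axes are genes that differed in 1 run only, and since both axes use the same GSC2 mean, the points lean along the diagonal.

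Profiles of single cells were about as alike across the lines as within them. The correlation between the profiles of 2 cells, over the described genes, had a median of 0.520 within run 1, 0.504 within run 2 and 0.514 between the runs. It was 0.525 between run 1 and GSC2, 0.514 between run 2 and GSC2, and 0.530 within GSC2. By these medians a cell of run 2 was no less like a GSC2 cell than like another cell of its own line. The cell most like each run 1 cell was a run 1 cell for 5, a run 2 cell for 3 and a GSC2 cell for 5 of the 13 cells. For the 16 run 2 cells it was a run 1 cell for 8 and a GSC2 cell for 8, and in no case a run 2 cell. For the 24 GSC2 cells it was another GSC2 cell for 15, a run 1 cell for 4 and a run 2 cell for 5. GSC2 offered the most candidate cells and run 1 the fewest, so these counts are not on an equal footing. Run 2 was also the shallowest group, with a median of 3.33 M reads, against 4.05 M in run 1 and 4.3 M in GSC2; the part of depth in these correlations was not tested.

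**Figure D3:**
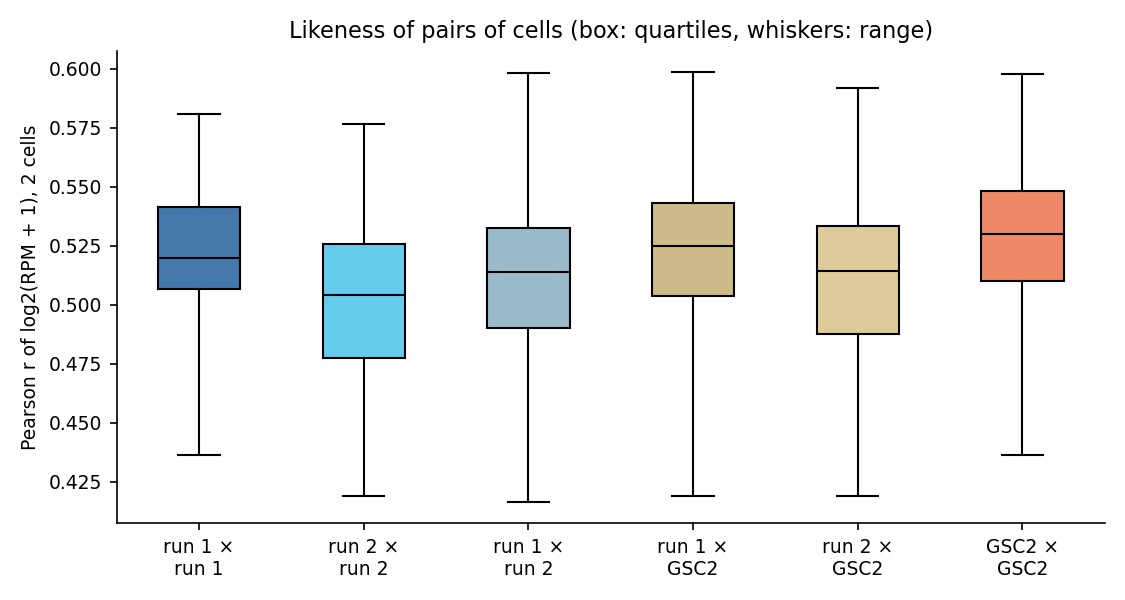
Pearson correlation of log2(RPM + 1) between pairs of cells over the described genes (vertical axis), for pairs within and between GSC1 run 1, GSC1 run 2 and GSC2; boxes are quartiles with the median, whiskers the full range. The medians lie between 0.504 and 0.530 and the boxes of pairs across lines overlap those of pairs within a line.

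The main genes of undifferentiated spermatogonia lay within 2-fold of each other in the lines. Gfra1, the GDNF receptor, averaged 245 RPM in GSC1 and 204 RPM in GSC2, and was at 5 RPM or more in every cell of both; within GSC1, run 1 averaged 321 RPM and run 2 182.9 RPM. Ret, its signalling partner, averaged 96.1 RPM in GSC1 and 118.2 RPM in GSC2. The GDNF-responsive factor Etv5 averaged 286 RPM in GSC1 and 279 RPM in GSC2, and Foxo1 334 RPM and 328 RPM. The runs of GSC1 thus stood further apart in Gfra1 than the lines did. Lhx1, another GDNF-responsive factor, averaged 139 RPM in GSC1 and 154.7 RPM in GSC2. Zbtb16, which encodes the zinc finger factor PLZF, averaged 55.9 RPM in GSC1 and 63.2 RPM in GSC2. Dmrt1, a factor that restrains entry into meiosis, averaged 315 RPM in GSC1 and 395 RPM in GSC2. None of these genes differed 2-fold between the lines. Id4, a marker of the most stem-like spermatogonia, averaged 23.5 RPM in GSC1 and 37.6 RPM in GSC2, but run 1 of GSC1 averaged 8.15 RPM and run 2 36 RPM, so the lower mean came from run 1.

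Of 35 listed genes of undifferentiated spermatogonia 29 were described, and 5 were called: Eomes, Sohlh1 and Ddit4 higher in GSC1, and Nanos2 and Upp1 lower, where 5.93% of all described genes were called. All of these but Sohlh1 averaged under 20 RPM over the lines, and of all genes at 5 to 20 RPM 13.8% were called. The list's median difference was -0.13, against -0.03 over all described genes, and the runs lay on either side of it at 0.09 and -0.16. Eomes, a T-box gene found in a subset of spermatogonia, averaged 27.8 RPM in GSC1 (8 of 29 cells at 5 RPM or more, highest cell 175) and 7.06 RPM in GSC2 (4 of 24 cells, highest 83.6). Nanos2, an RNA-binding repressor of differentiation, averaged 1.99 RPM in GSC1 and 16.7 RPM in GSC2. All of the GSC1 signal of Nanos2 came from 1 cell of run 1, at 57.8 RPM, and run 2 was at 0, while in GSC2 6 of 24 cells reached 5 RPM and the highest had 220 RPM. Its difference of -2.57 was -1.70 for run 1 and -4.15 for run 2. The share of cells at 5 RPM or more was 3.45% in GSC1 (exact 95% binomial interval 0.0873% to 17.8%) and 25% in GSC2 (9.77% to 46.7%), where the intervals cover counting error only and overlap. Most cells of both lines therefore held no Nanos2 at this cutoff, which stands for 10.1 reads in the shallowest cell and 30.2 in the deepest.

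Of 20 genes of differentiating spermatogonia 16 were described: Elmo1 and Sohlh1 were called higher in GSC1 and Kit lower. Over all described genes 5.93% were called, and 13.8% of those at 5 to 20 RPM, the level of Elmo1 and Kit. Kit, the receptor of stem cell factor, averaged 7.78 RPM in GSC1 (5 of 29 cells at 5 RPM or more) and 23.4 RPM in GSC2 (10 of 24 cells). Sohlh1, a basic helix-loop-helix factor of early differentiation that is on both lists, averaged 42.2 RPM in GSC1 (11 of 29 cells) and 15.5 RPM in GSC2 (6 of 24 cells). Kit and Sohlh1, which both mark the step into differentiation, thus differed in opposite directions. Stra8, the retinoic acid target, was below the 5 RPM average, at 3.17 RPM in GSC1 and 2.79 RPM in GSC2. Elmo1, an activator of Rac signalling in cell engulfment and migration, averaged 16.3 RPM in GSC1, with 8 of 29 cells at 5 RPM or more, and 0.142 RPM in GSC2, where the highest cell had 2.81 RPM. Its difference of 3.92 (4.48 in run 1, 3.23 in run 2) depends on the 1 RPM added to both means.

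The T-box gene T and the imprinted RNA H19 differed 2-fold in the line means but not in both runs. T averaged 51.7 RPM in GSC1 and 18.9 RPM in GSC2, with 84.9 RPM in run 1 and 24.7 RPM in run 2. H19 averaged 40.2 RPM in GSC1 and 12 RPM in GSC2, and its difference was 0.90 in run 1 and 2.08 in run 2.

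Over all lists, 361 of the 596 listed genes were described and 23 of these (6.37%) were called, 11 higher and 12 lower, close to the 5.93% over all described genes. No member was called among 21 described genes of the GDNF pathway, 25 of the germ cell and piRNA pathway, 31 methylation-sensitive germline genes, 16 of the DNA methylation machinery, 26 of oxidative phosphorylation, 9 of antigen presentation, 17 of glutathione and detoxification, 20 of cholesterol synthesis and 7 zinc finger repressors of the KRAB family. Nor was any of 13 imprinted genes expressed from the paternal allele, 24 of S phase, 25 of the G2 and M phases, and 8 fibroblast and feeder markers. Some of these lists, such as oxidative phosphorylation, held mostly genes above 100 RPM, where only Sfrp2 was called among all described genes. The interferon response held 2 calls. Apart from it, the spermatogonial lists above and the maternally expressed imprinted list below, each remaining list with described genes held 1. These calls comprised Mlh3 and Sox2 higher in GSC1 and Ldhc lower, and Hk2, a hexokinase of glycolysis, lower, at 27.4 RPM in GSC1 and 64.9 RPM in GSC2. Sox2, a pluripotency factor, averaged 29.3 RPM in GSC1 and 11.9 RPM in GSC2, from 6 of 29 and 3 of 24 cells. Of the pluripotency factors below the filter, Nanog averaged 0.0168 RPM in GSC1 and 0 in GSC2, and Pou5f1 5.59 RPM and 4.07 RPM. Eda2r of the p53 response and Hoxb6 were lower in GSC1. Ddx58, the RNA sensor RIG-I, was higher, at 22.5 RPM in GSC1 and 0.164 RPM in GSC2. A single cell held 60.5% of the GSC1 signal of Ddx58. Stat2, which carries the interferon signal, was lower, at 1.33 RPM in GSC1 and 9 RPM in GSC2.

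Imprinted genes expressed from the maternal allele held 5 calls among 15 described genes, 2 higher and 3 lower, where 5.93% of all described genes were called. The 5 called genes averaged under 20 RPM over the lines, and of all genes at 5 to 20 RPM 13.8% were called. The list was chosen with these values known, so the count is a description. Marks laid down in the germline restrict such genes to expression from a single parental copy. Several of them lie in a cluster on chromosome 7 (GRCm38.p6). Cdkn1c, an inhibitor of cyclin-dependent kinases, at 143458339 to 143461059, averaged 29.9 RPM in GSC1 (23.1 in run 1, 35.4 in run 2) and 7.63 RPM in GSC2. Phlda2, a growth-restraining gene of the placenta, at 143501545 to 143503145, averaged 9.29 RPM in GSC1 and 2.31 RPM in GSC2. Their neighbours went the other way. Ascl2, a transcription factor of the placenta, at 142966822 to 142969264, averaged 2.28 RPM in GSC1 and 20.8 RPM in GSC2, and Osbpl5, at 143688762 to 143757008, averaged 3.15 RPM and 13.3 RPM. These are differences among few cells: Cdkn1c reached 5 RPM in 8 of 29 GSC1 and 3 of 24 GSC2 cells, Phlda2 in 4 and 1, Ascl2 in 2 and 6, and Osbpl5 in 3 and 8. Of the values of Cdkn1c above 0, 65.4% were whole numbers of reads, so its level is less certain than that of genes counted in whole reads. The list's other call was Gatm, an enzyme of creatine synthesis, at 2.1 RPM in GSC1 and 13 RPM in GSC2.

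The S phase genes leaned to lower values in GSC1, though none was called. Of 24 described genes 21 had a negative line difference, with a median of -0.30, against 5303 of 10115 described genes (52.4%) and a median of -0.03. The lean was present for each run, with medians of -0.19 in run 1 and -0.45 in run 2, and 16 of the 24 genes lay below GSC2 in both runs, as did 35.1% of all described genes. Pcna, the sliding clamp of DNA polymerase, averaged 485 RPM in GSC1 and 693 RPM in GSC2. Mcm2, a subunit of the replicative helicase, averaged 512 RPM in GSC1 and 715 RPM in GSC2. Cdc45, a partner of that helicase, was the only member past 2-fold in the line means, at -1.04, with -1.40 in run 1 and -0.81 in run 2. Other helicase subunits were nearer to each other, with Mcm3 at 241 RPM in GSC1 and 245 RPM in GSC2, and Mcm6 at 333 RPM and 344 RPM. The list summed to a median of 3451 RPM per cell in GSC1 (1647 to 9112) and 5918 RPM in GSC2 (940 to 9299), so the ranges of single cells overlapped almost wholly. Other lists also had both runs on 1 side, such as Hox genes (-0.31, runs -0.01 and -0.41), the DNA methylation machinery (-0.19, runs -0.20 and -0.30), and glutathione and detoxification (0.26, runs 0.24 and 0.30). The G2 and M phase list had a median difference of -0.09, with the runs on opposite sides at -0.23 and 0.26. How cells were picked by stage of the cycle is not given, and the part of such sampling in the S phase difference was not tested.

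**Figure D4:**
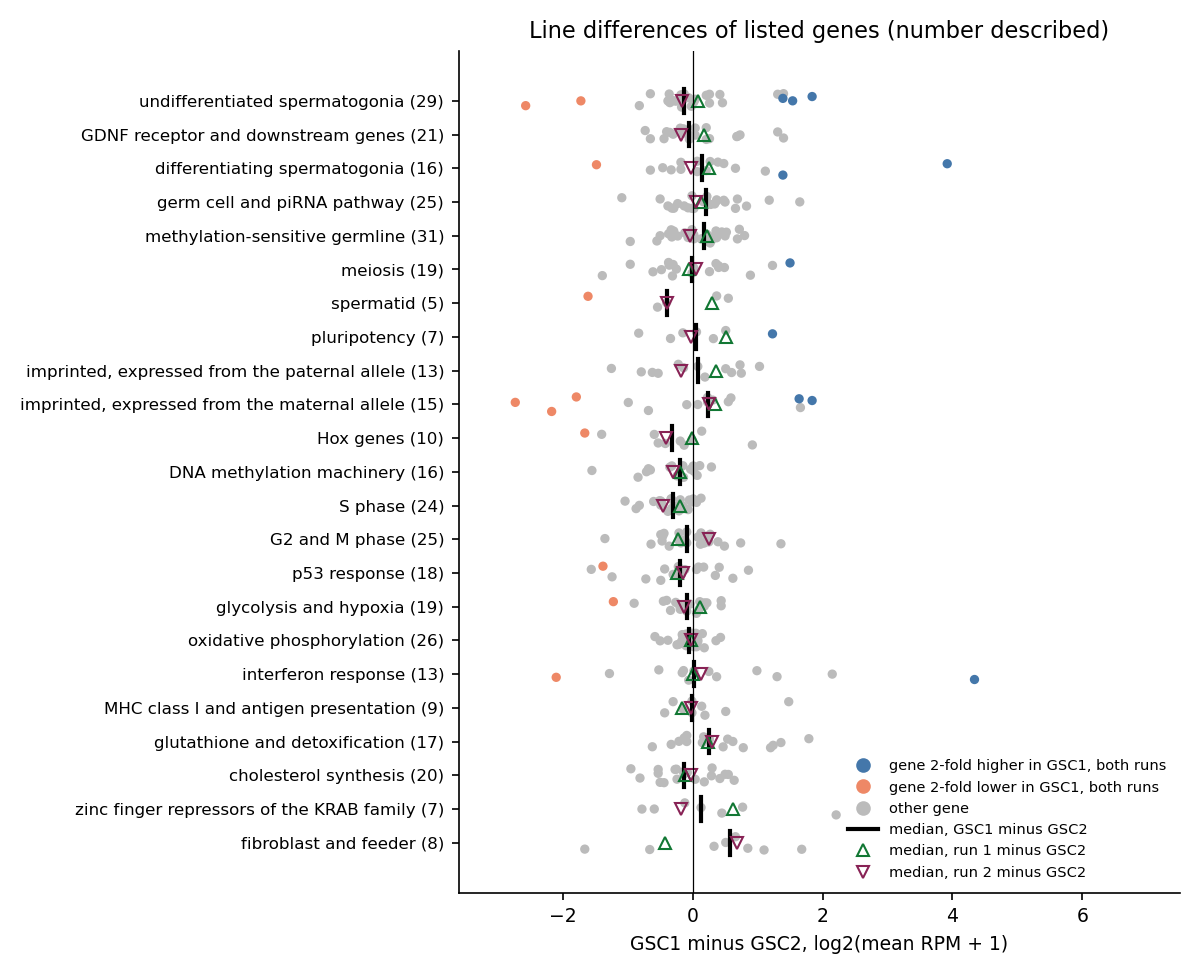
Line differences, GSC1 minus GSC2 in log2(mean RPM + 1) (horizontal axis), of the described genes of each list with at least 5 of them (number in brackets); blue and orange points are genes called higher and lower in GSC1, bars are list medians, and triangles the medians of each GSC1 run against GSC2. Most medians lie near 0. Both runs lie on 1 side for S phase (-0.30), Hox genes (-0.31), the DNA methylation machinery (-0.19), the p53 response (-0.20) and glutathione and detoxification (0.26), among others, and the median of the 8 fibroblast and feeder markers is 0.58, with run 1 at -0.43 and run 2 at 0.69.

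Among genes seen in many cells, 43 were called higher in GSC1 and 83 lower. These had a mean of at least 20 RPM in the higher line and 5 RPM in 50% or more of its cells. Where GSC1 was higher, the share was asked of each of its runs, so the 43 and the 83 passed unequal conditions. The 12 with the largest line differences in each direction follow. Single-cell values of GSC1 and GSC2 overlapped in all 24, since each gene was at 0 in at least 1 cell of both lines.

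The largest difference among those higher in GSC1 was that of Upf3a, a factor of nonsense-mediated RNA decay (chromosome 8, 13785055 to 13798723). Its GSC1 cells ran from 0 through a median of 54.4 to 219 RPM, and its GSC2 cells from 0 through a median of 0.514 to 96.7 RPM. Run 1 averaged 58.9 RPM, run 2 54 RPM and GSC2 12.8 RPM, a line difference of 2.05. In GSC1 19 of 29 cells reached 5 RPM, and in GSC2 6 of 24, a share that the choice of these genes used in the higher line. Chpf, which takes part in building chondroitin sulfate chains, averaged 46.3 RPM in GSC1 (18 of 29 cells) and 10.9 RPM in GSC2 (8 of 24 cells), a difference of 1.99. Foxf1a, a forkhead factor best known from lateral mesoderm, averaged 26.1 RPM in GSC1 and 8.15 RPM in GSC2. It reached 5 RPM in 19 of 29 GSC1 and 5 of 24 GSC2 cells, and the GSCLC1 and GSCLC4 means were 9.05 and 10.2 RPM, near GSC2. Thap1 and Hinfp, zinc finger transcription factors, of which Hinfp acts on histone H4 genes, had differences of 1.95 and 1.85, with unequal runs: 2.54 in run 1 and 1.17 in run 2 for Thap1, 1.04 and 2.28 for Hinfp. S100a11, a calcium-binding protein gene, was the most abundant of these genes, at 146.5 RPM in GSC1 and 49.7 RPM in GSC2. Of its values above 0, 51.1% were whole numbers of reads, so its level is uncertain in the same way. The others were Cdyl2, a chromodomain gene, Gpr180, Tmem132e, Haus7, a subunit of the augmin complex of the spindle, Ccdc84 and Unkl, with differences of 1.58 to 1.85.

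Sfrp2, a secreted binder of Wnt proteins (chromosome 3, 83765750 to 83774314), was the most abundant of all called genes and was lower in GSC1. Its GSC1 cells ran from 0 through a median of 0.828 to 379 RPM, and its GSC2 cells from 0 through a median of 158.7 to 1554 RPM. The means were 115.7 RPM in run 1, 42.4 RPM in run 2 and 327 RPM in GSC2, a line difference of -2.11. In GSC1 14 of 29 cells reached 5 RPM and in GSC2 20 of 24. The mean was 26.7 RPM in GSCLC1 and 18.5 RPM in GSCLC4, so GSC2 stood highest of the 4 lines. Raver2, an RNA-binding protein gene, had the largest difference, -3.04, with 2.33 RPM in GSC1 (5 of 29 cells) and 26.4 RPM in GSC2 (13 of 24 cells). Its highest GSC1 cell had 13.1 RPM, and its highest GSC2 cell 153.4 RPM. Tmem170b, a membrane protein gene, averaged 5.6 RPM in GSC1 (6 of 29 cells) and 52.3 RPM in GSC2 (13 of 24 cells), a difference of -3.01. Lrig3, a leucine-rich repeat membrane protein that modulates growth factor receptors, averaged 9.44 RPM in GSC1 (8 of 29 cells) and 52.2 RPM in GSC2 (17 of 24 cells). Pdia4, a disulfide isomerase of the endoplasmic reticulum, averaged 11.5 RPM in GSC1 and 45.2 RPM in GSC2. It was seen in 17 of 29 and 18 of 24 cells, so here the levels differed more than the share of cells. The remaining genes were Zfp367, 5730419I09Rik, A830010M20Rik, Tmco3, BC005561, Kifap3, a partner of the kinesin-2 motor, and 2610021A01Rik, with differences of -2.42 to -1.81. In A830010M20Rik a single cell held 65.5% of the GSC1 signal.

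**Figure D5:**
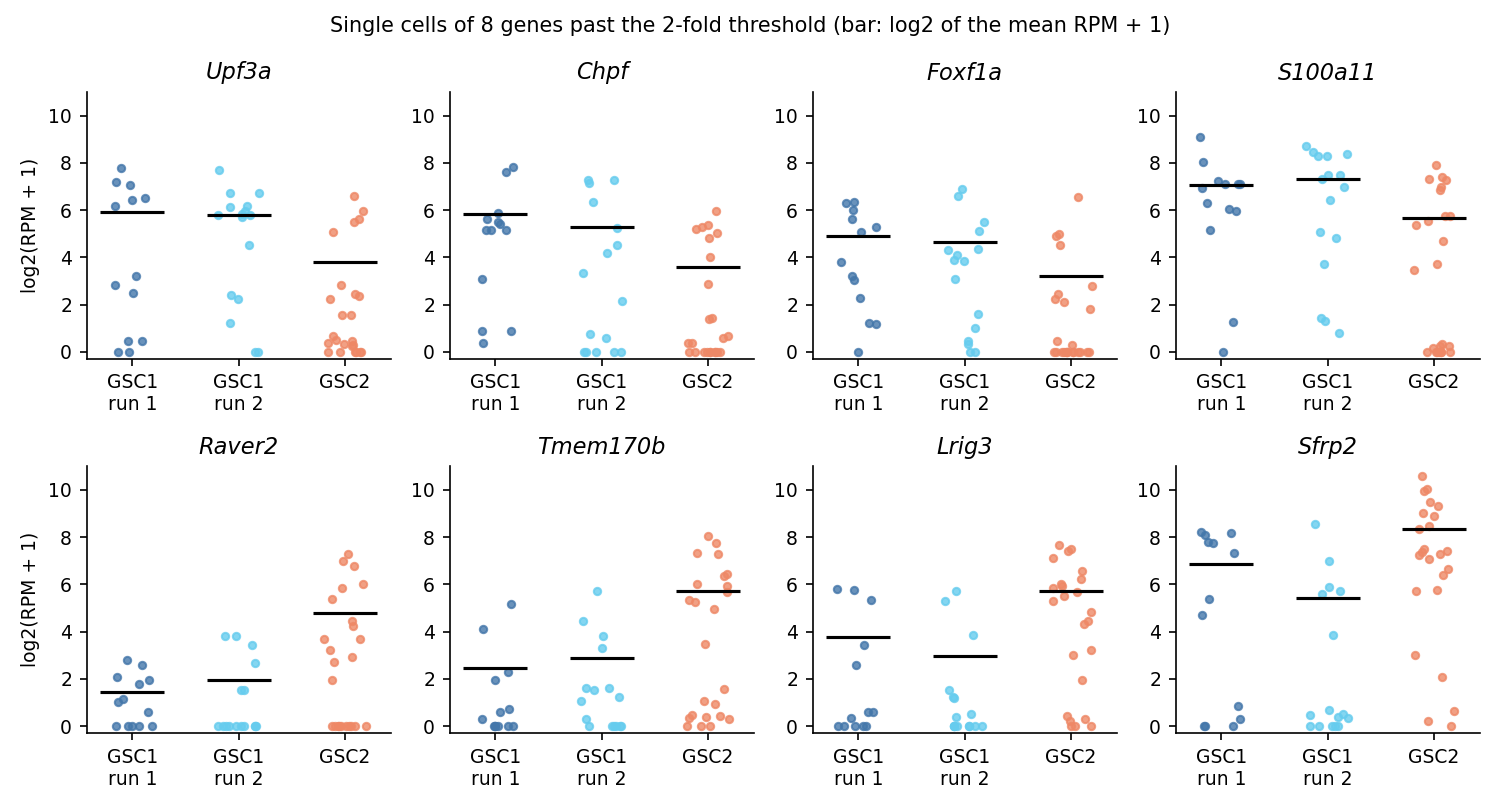
Expression in single cells, log2(RPM + 1) (vertical axes), of 4 genes called higher and 4 called lower in GSC1, with GSC1 run 1 (13 cells), GSC1 run 2 (16 cells) and GSC2 (24 cells) side by side; each point is a cell and bars are log2(mean RPM + 1). Cells at or near 0 occur in all groups, and the groups differ in how many cells lie above them, as for Upf3a with 19 of 29 GSC1 and 6 of 24 GSC2 cells at 5 RPM or more.

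For genes seen in nearly all cells the lines were close. Of 2222 genes that reached 100 RPM in the higher line and 5 RPM in 80% or more of the cells of both lines, none was called and 7 differed 2-fold in the line means. Asking for 80% in both lines leaves out any gene rare in either, such as Sfrp2, so part of this closeness comes with the choice. To describe this class, the 8 genes per direction whose smaller difference of the 2 runs from GSC2 was largest are named; that rule was chosen after the values were seen. Higher in GSC1 were Igf2bp1, an RNA-binding protein gene of growing cells, at 128 RPM in GSC1 and 64.9 RPM in GSC2, and Ppp1r14b, a phosphatase inhibitor gene, at 271 RPM and 140 RPM. Imp3, for ribosomal RNA processing, averaged 213 RPM in GSC1 and 113.7 RPM in GSC2, and no GSC1 cell was under 73.5 RPM, while the lowest GSC2 cell had 0.658 RPM. Utp18 also serves ribosomal RNA processing, Mrps6 the mitochondrial ribosome, Ndufb10 respiratory complex I, Coq10b coenzyme Q and Tead2 the Hippo pathway, and their differences were 0.75 to 0.89. Igf2bp1, Imp3 and Mrps6 had whole numbers of reads in 56.6%, 50.9% and 66.7% of their values above 0, so their levels are less certain.

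Lower in GSC1 were Hadhb, of mitochondrial fatty acid oxidation, at 114.2 RPM in GSC1 and 243 RPM in GSC2, and Fh1, the fumarase of the citric acid cycle, at 71.8 RPM and 150.9 RPM. Dld, a shared subunit of mitochondrial dehydrogenase complexes, averaged 77.4 RPM in GSC1 and 135.9 RPM in GSC2. Riok2, a kinase of small ribosomal subunit maturation, averaged 76 RPM in GSC1 and 163.6 RPM in GSC2, and Tmbim6, a membrane protein of the endoplasmic reticulum, 72.5 RPM and 156.8 RPM. Cdc45 of the S phase list averaged 134 RPM in GSC1 (104.5 in run 1, 158.3 in run 2) and 278 RPM in GSC2. Ahctf1, a nuclear pore protein gene, and Sept7, a septin gene, had differences of -0.96 and -0.85. The run differences of these 8 genes, by which they were chosen, were -0.77 to -1.40.

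By contrast, Vim, an intermediate filament gene of fibroblasts that is abundant in feeder cells, differed 2-fold in the line means only through run 2. It averaged 231 RPM in GSC1 and 71.6 RPM in GSC2, with 48.3 RPM in run 1 and 380 RPM in run 2. A single cell held 38.8% of its GSC1 signal. Acta2 followed the same pattern, at 27.2 RPM in GSC1 and 8.92 RPM in GSC2, with 0.854 RPM in run 1 and 48.5 RPM in run 2. Pdgfra and Clu, listed among Leydig or peritubular and Sertoli markers, were called in opposite directions: Pdgfra was lower, at 8.41 RPM in GSC1 and 44 RPM in GSC2, and Clu higher, at 20.8 RPM and 3.11 RPM. Pecam1, listed among endothelial markers, was higher, at 9.99 RPM in GSC1 and 2.82 RPM in GSC2. Without the 2 run 2 cells of the highest fibroblast sums, 281 genes were higher in GSC1 and 338 lower.

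No chromosome was shifted as a whole by more than 0.11 in the line means. The median line difference of chromosome 17 was 0.11 above that of all described genes over its 471 genes (0.05 for run 1, 0.13 for run 2), and that of every other chromosome lay within 0.1. For single runs the furthest below all genes was chromosome 16 in run 2, at -0.17, with 0.00 in run 1. The largest chromosome 17 differences above 20 RPM were those of Brpf3, Zfp229 and Slc29a1, a nucleoside transporter. Slc29a1 averaged 48.6 RPM in GSC1 and 10.2 RPM in GSC2, with run differences of 2.27 and 2.03. Brpf3, a reader of acetylated histones, averaged 25.5 RPM in GSC1 and 1.92 RPM in GSC2, with 6.57 RPM in run 1 and 40.9 RPM in run 2. Zfp229 averaged 31.3 RPM in GSC1 and 4.96 RPM in GSC2.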

How the data were processed

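Expression was taken from the deposited table of signal, which the authors give as RPM, for 26218 genes and 92 ERCC spike-ins. The submitters' processing notes name cutadapt 1.3, TopHat 1.4.1, Cufflinks 2.2.0 and the build mm10; the sources used here do not say how reads with several positions were counted. The deposited RPM signal is scaled on the gene rows, with the spike-ins on top; blank spike-in cells of the table (6440) were set to 0. Depth was estimated per cell by taking its commonest value above 0 as 1 read. Within a tolerance of 0.05 read, 85.6% to 91.6% of the values of a cell came out whole, too few for a count model.

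Line and run means, differences, shares of cells at 5 RPM or more and exact (Clopper-Pearson) 95% intervals were computed in Python 3.11.15 with pandas 2.3.3, numpy 2.4.6 and scipy 1.17.1. The steps were tested on simulated data for genes with a GSC2 mean of at least 20 RPM, whereas most called genes averaged under 20 RPM over the lines. Positions come from RefSeq on GRCm38.p6, which is the mm10 assembly, and were found for 24615 genes (93.9%) by Entrez identifier. Y-linked genes were not analysed here.

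Named genes were the 12 largest line differences per direction among called genes of at least 20 RPM in the higher line. These genes also reached 5 RPM in 50% of the cells of that line, or of each run where it was GSC1. Also named were up to 3 members of each of 27 lists by size of difference and 40 genes of interest. So were 3 genes of any chromosome shifted by more than 0.1. Not all are printed. A rule for abundant genes was added after values were seen. The comparison, members and lists were chosen with earlier results of these data known. Alternatives changed the pseudocount, filter, summary over cells, scaling, runs, depth and left-out cells.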

Additional observations from a re-analysis of the deposited data

Results flagged for a closer look

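The GSC1 cell left out of the comparison carried signal of another kind. Its fibroblast and feeder markers summed to 61178 RPM, against 222 to 6009 RPM (median 731) in the other GSC1 and GSC2 cells, and its germ cell markers summed to 1275 RPM, against a median of 5294 RPM. It came to attention because its values lie outside the cells used for the comparison and above all of them. With this cell kept, 288 genes were called higher in GSC1 and 341 lower, against 267 and 333 without it.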

How the results depend on the processing

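No named gene that was called reversed its direction, but several fell to 0.00 in some alternative, among them Nanos2, Elmo1, Ddx58 and Sox2. Over all called genes, 2 changed sign with the mean of log2 values. With spike-in scaling 1 did, and with the left-out cell kept 1 did. The shares of genes called higher in GSC1, called lower, and 2-fold apart between the GSC1 runs were 2.64%, 3.29% and 22.9%. They became 0.514%, 0.692% and 10.4% with a pseudocount of 10 RPM. With a filter of 20 RPM they were 0.977%, 1.21% and 12.5%. The first left 52 and 70 calls and the second 67 and 83. A larger pseudocount or a higher filter can only remove calls, so all of these had to be among the original 267 and 333. Without the filter the shares were 2.63%, 5.68% and 26% of more genes (482, 1039 and 4380 genes). Medians over cells gave 9.07% lower (576 genes), and 32 of the original higher and 68 of the original lower calls remained. The mean of log2 values gave 1.5% higher (152 genes) and 4.17% lower (422), with 74 and 129 of the original calls kept. Leaving out the highest cell of each line and run gave 1.85% higher (170 genes) and 4.67% lower (429), with 135 and 220 kept. Spike-in scaling gave 1.55% higher and 7.62% lower (782 genes). Run 1 alone gave 8.6% and 10.5% (865 and 1058 genes), run 2 alone 8.89% and 9.5% (903 and 965), and the line difference without the runs 6.31% and 6.46% (638 and 653). Shifting the median to 0, keeping the left-out cell, genes of whole reads, thinning to 1 depth, and leaving out the 2 run 2 cells rich in fibroblast markers, which was chosen after seeing the data, moved these counts by less than 1.5 times. The S phase median was negative in all 15 alternatives, from -0.67 with spike-in scaling to -0.19 with run 1 alone. The median over all described genes was -0.38 with spike-in scaling and -0.03 with run 1 alone. It was -0.15 for medians over cells and -0.14 for the mean of log2 values. Of 24 genes named for large differences, 20 stayed past 2-fold in size in all 15 alternatives, the others being Foxf1a, Haus7, Tmem132e and Unkl. Of the 23 other named calls 2 did, Hk2 and Slc29a1, and the smallest Hk2 difference lay at the 2-fold limit. Only the size of a difference was counted, even where an alternative left the gene out, as the filter of 20 RPM did Raver2. Run 1 alone, run 2 alone and the line difference without the runs repeat conditions of a call, so they could not fail. Changing the filter or keeping only genes of whole reads left each difference as it was, so these alternatives could not fail either. The 24 were also chosen for size, level and share of cells, so these counts are a description and not a test of robustness. No paired analysis was possible because the cells carry no number shared between the lines. With cells thinned to 1 depth, 254 and 312 of the original calls remained; depth was not tested apart for genes under 20 RPM. With 1 line per side no spread between lines is known.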
